A study of Mus musculus with 2 samples.

Results

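Smooth muscle and mural cells at E13.5 were described among cells that Isl1-Cre had labelled with eYFP. A cell was counted as a member when it held at least 3 UMIs (unique molecular identifiers, each marking 1 captured transcript) of Acta2, at least 2 of Tagln and at least 1 of 2 or more of Myh11, Cnn1, Notch3, Rgs5 and Pdgfrb, with fewer than 2 of Cdh5, Pecam1, Epcam, Ptprc, Myog, Myh6 and Nppa detected. Of the 6272 cells kept (above 2000 and below 9000 detected genes, under 10% mitochondrial UMIs), 200 were members, 99 in the control library and 101 in the mutant library. Members were thus chosen by the measured UMIs of these 14 genes, whose values are given below as a description, without a test.

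Each library held cells of 3 pooled embryos, dissected above the liver, dissociated and sorted for eYFP. Control embryos were Isl1-Cre;R26R-eYFP, and mutant embryos also carried a Rosa26 allele that expresses Pik3caH1047R, an activated form of the catalytic subunit p110 alpha of phosphoinositide 3-kinase, once Cre has removed its stop cassette. Isl1-Cre acts in progenitors that express Isl1, and the sort was for cells in which it had acted, so that smooth muscle of other origins was not sampled by design. With 1 library per genotype, the difference between genotypes cannot be told apart from that between pools of embryos, and no p-value is given: the intervals are 95% intervals for counting error only.

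Smooth muscle cells contract through actin and myosin under the control of calcium, calmodulin and myosin light chain kinase. Their contractile genes are switched on by serum response factor with its partner myocardin, which act on a DNA element called the CArG box. Mural cells, which comprise vascular smooth muscle cells and pericytes, wrap endothelial tubes and depend on PDGF and Notch signals from the endothelium, whereas visceral smooth muscle surrounds the gut and the airways.

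Upstream sequences are shown for contractile genes that hold a CArG box and for genes of hypoxia and glycolysis that were higher in mutant members. They come from RefSeq promoters of GRCm38.p6, from 250 bases before to 50 bases after the start of each gene, which matched 28 of 34 contractile genes. Tagln, Myh11 and Actg2 were among those without an entry. An exact CArG box, with 6 A or T bases in its centre, stood on either strand in 4 of these 28 promoters (14.3%: Cnn2, Myl6, Myl9 and Vcl) and in 488 of all 27025 promoters (1.81%). With up to 1 G or C in the centre the box stood in 7 of 28 (25%), Acta2 among them, in 5 of 20 promoters of glycolytic enzymes (25%), in 5 of 36 of HIF targets (13.9%) and in 11.3% of all. A match is a description and no evidence of binding. Capitals mark the box in Acta2 (chr19:34255438-34255467 and chr19:34255388-34255417, minus strand, 84 and 34 bases before the RefSeq start and inside an exon of the GENCODE annotation), Myl9 (chr2:156775283-156775332, plus strand), Cnn2 (chr10:79988524-79988573, plus strand) and Vcl (chr14:20929151-20929200, plus strand), the last 3 upstream of the start.
Acta2, distal box: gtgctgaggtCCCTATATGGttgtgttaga
Acta2, proximal box: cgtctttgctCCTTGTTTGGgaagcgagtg
Myl9: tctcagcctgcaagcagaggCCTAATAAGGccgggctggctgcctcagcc
Cnn2: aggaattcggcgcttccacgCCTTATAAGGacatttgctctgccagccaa
Vcl: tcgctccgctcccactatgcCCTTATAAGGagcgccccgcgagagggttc

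The core of the element bound by hypoxia-inducible factors (HIF), ACGTG or GCGTG on either strand, was found in 33 of 36 promoters of HIF targets (91.7%), in 15 of 20 of glycolytic enzymes (75%), in 19 of 28 of contractile genes (67.9%) and in 46.7% of all promoters. Capitals mark it in Bnip3 (chr7:138909517-138909643, minus strand), Slc16a3 (chr11:120949020-120949066, plus strand), Ldha (chr7:46845736-46845794, plus strand) and Pgk1 (chrX:106186930-106186993, plus strand). The letters CACGTG, in Bnip3 and Ldha, hold the core on both strands at overlapping positions.
Bnip3: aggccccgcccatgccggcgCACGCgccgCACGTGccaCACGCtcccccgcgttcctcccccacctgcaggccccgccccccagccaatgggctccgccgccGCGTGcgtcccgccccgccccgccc
Slc16a3: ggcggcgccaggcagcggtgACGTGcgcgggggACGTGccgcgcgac
Ldha: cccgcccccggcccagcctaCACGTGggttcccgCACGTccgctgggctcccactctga
Pgk1: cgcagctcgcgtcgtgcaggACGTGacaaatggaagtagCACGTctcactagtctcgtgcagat

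The libraries were similar in depth over the members. Control members held 2747744 UMIs in all (median 26347 per cell, range 4325 to 61057) and mutant members 2818912 (median 27172, range 6073 to 72055). Both medians were above those of all filtered cells, which were 20412 and 16839. The mitochondrial share had a median of 1.5% in control members and 1.40% in mutant members, and of the 28 cell barcodes that occurred in both libraries none belonged to a member.

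The libraries differed in sex, which touches every comparison of genotypes below. Female-like cells, with a UMI of Xist and none of Ddx3y, Uty, Kdm5d or Eif2s3y, were 97 of 99 control members and 28 of 101 mutant members. Male-like cells, with Y-linked UMIs and none of Xist, were 0 of 99 and 62 of 101. Xist, the non-coding RNA of the inactive X chromosome, stood at 431 counts per 1e+06 UMIs (CPM) in control members and 152 CPM in mutant members, and Eif2s3y at 0 and 51.8 CPM. Comparisons were therefore repeated on female-like members alone, of which the mutant library held only 28. Sex, embryo and genotype cannot be told apart in the male-like cells, since the control members held none.

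Members made up 3.56% of filtered control cells (95% Clopper-Pearson interval 2.9 to 4.31) and 2.89% of filtered mutant cells (2.36 to 3.51). The intervals overlapped. When every cell was first thinned to 5000 UMIs, 32 of 2722 control cells (1.18%) and 52 of 3316 mutant cells (1.57%) met the rule. The order of the libraries turned with thinning and the intervals overlapped again, so no difference in the share of members was detectable. Other mesenchyme, used here for comparison, was taken as non-members with at least 3 UMIs of both Col1a2 and Col3a1, at least 2 of 7 further mesenchymal genes and few markers of other types. It made up 740 control cells (26.6%) and 391 mutant cells (11.2%).

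Acta2, the actin of vascular smooth muscle (chr19:34241090-34255590), had a median of 29 UMIs per control member (range 3 to 230) and 42 per mutant member (3 to 395). Tagln, an actin-binding protein of early smooth muscle (chr9:45929619-45936058), had a median of 7 (2 to 266) and 32 (2 to 311). The ranges of the libraries overlapped for both genes, and the highest value of each lay in the mutant library. Myh11, the smooth muscle myosin heavy chain (chr16:14194535-14291372), was detected in 52 control members (52.5%, 42.2 to 62.7) and 44 mutant members (43.6%, 33.7 to 53.8). Cnn1, calponin (chr9:22099216-22109630), was detected in 46 (46.5%, 36.4 to 56.8) and 74 (73.3%, 63.5 to 81.6). These genes were part of the rule, as were Notch3 (67 and 71 cells), the PDGF receptor Pdgfrb (65 and 70) and the pericyte gene Rgs5 (48 and 50).

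**Figure D1:**
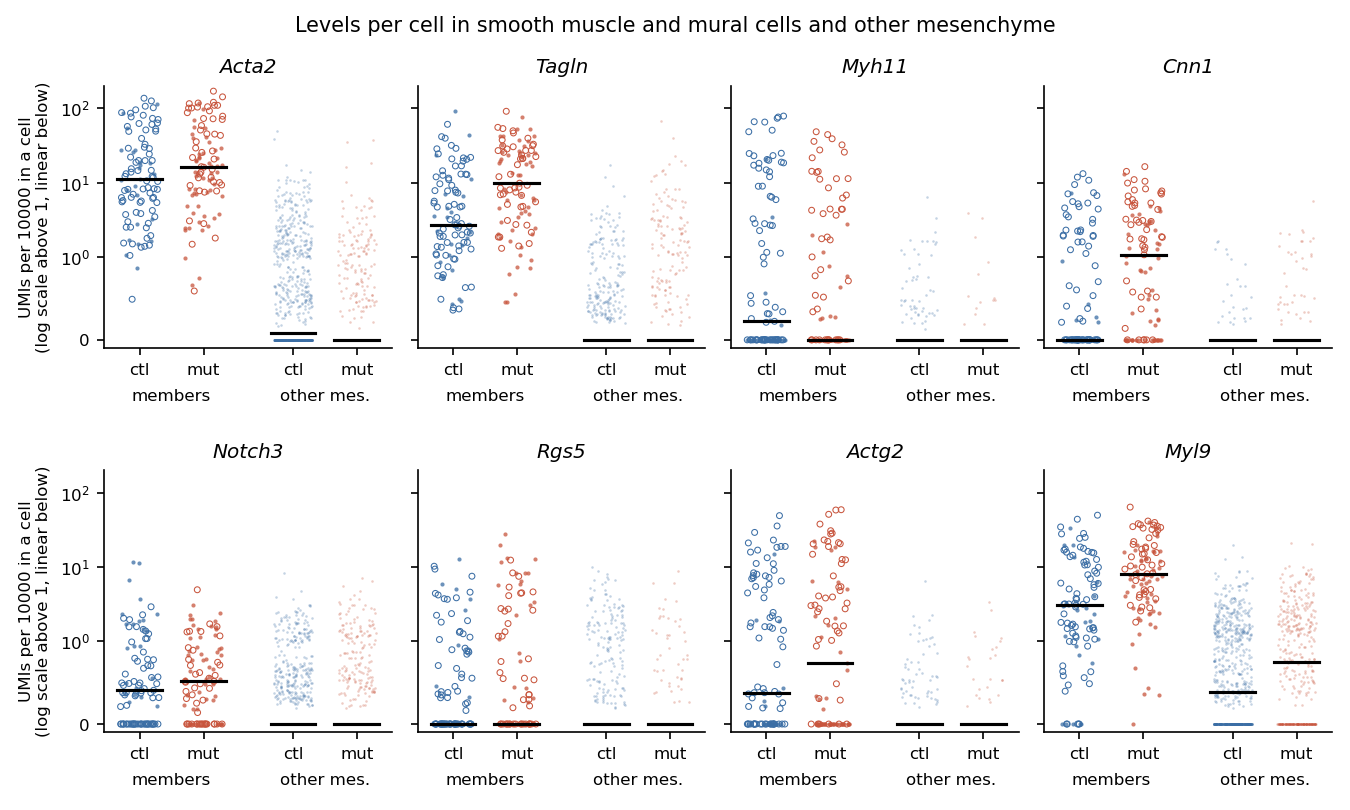
UMIs per 10000 UMIs of each cell (symmetric log axis) for the 6 marker genes, Actg2 and Myl9 in members and other mesenchyme of both libraries; each point is a cell, open circles are members with visceral markers, filled circles the others, and black lines are medians. Tagln had a median of 7 UMIs per cell in control members and 32 in mutant members, and many members of either library held no Myh11 or Cnn1.

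Cells that should lack these genes gave a floor for the shares. In neuron-marked cells (at least 3 of Elavl3, Elavl4, Tubb3 and Stmn2; median 18436.5 UMIs in the control library and 15041.5 in the mutant library), Myh11 was detected in 5.23% and 2.30% and Cnn1 in 1.74% and 2.53%. Acta2 was detected in 27.9% and 28.3% of them and Tagln in 10.5% and 10.4%. These shares count cells with at least 1 UMI, below the limits of the rule for both genes.

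Cells close to the limits of the rule were common. Members with exactly 2 UMIs of Tagln numbered 18 and 7, and those with exactly 2 of the further markers 45 and 37. Just outside, 42 and 17 cells failed by 1 UMI of Tagln, with a median of 9 and 14 UMIs of Acta2, and 169 and 123 failed by 1 further marker, with a median of 21 and 31 UMIs of Acta2. The label of smooth muscle and mural cells rested on Acta2 and Tagln in every member, but on Myh11 and Cnn1 in part of them only. Members with a UMI of both Myh11 and Cnn1 were 36 in the control library and 39 in the mutant library. Of the barred markers, the myogenic factor Myog was detected in 22 control members and 10 mutant members and the endothelial genes Pecam1 in 3 and 10 and Cdh5 in 3 and 6. Ptprc was detected in none.

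Members were sorted into kinds by the regional genes they expressed, and a cell could belong to several kinds. Visceral-marked members, with at least 2 of Foxf1, Tbx4, Tbx5, Wnt2, Actg2, Barx1 and Hhip, were 76 of 99 in the control library (76.8%, 67.2 to 84.7) and 47 of 101 in the mutant library (46.5%, 36.5 to 56.7). Head-marked members, with at least 2 of Twist1, Prrx2, Dlx1, Dlx2, Dlx5, Dlx6 and Pitx1, were 19 (19.2%, 12 to 28.3) and 50 (49.5%, 39.4 to 59.6). Outflow-marked members, with at least 2 of Gata4, Hand2, Hand1, Tbx20, Isl1 and Nkx2-5, were 7 (7.07%, 2.89 to 14) and 32 (31.7%, 22.8 to 41.7). The mutant members thus held fewer visceral-marked cells and more cells with head or outflow markers, and none of these 3 pairs of intervals overlapped. The kinds shared cells: 4 outflow-marked control members and 22 outflow-marked mutant members were also head-marked. Of the visceral-marked members, 12 and 16 were also head-marked, and 2 and 10 were also outflow-marked. Pericyte-marked members, with at least 3 of Rgs5, Kcnj8, Abcc9, Cspg4, Notch3, Higd1b and Vtn, were 23 (23.2%) and 22 (21.8%), with overlapping intervals. Rgs5 and Notch3 were also genes of the rule that chose the members, so the pericyte shares are a description.

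The same shift was seen in other mesenchyme, where visceral-marked cells were 52.3% and 24.6%, head-marked cells 37.7% and 50.4% and outflow-marked cells 7.84% and 19.9%. In neuron-marked cells the visceral share was 2.33% and 1.84%, the head share 16.9% and 16.8% and the outflow share 16.9% and 9.22%. The outflow share of control members lay below this floor. Some neurons themselves express Isl1 or Hand2, so that share can be read neither as signal nor as background. At 5000 UMIs per cell, visceral-marked members were 50.5% and 30.7%, head-marked members 1.03% and 8.91% and outflow-marked members 0% and 11.9%. The 3 shares kept their order with thinning, but the intervals of the visceral shares (40.2 to 60.8 and 21.9 to 40.7) and of the head shares (0.0261 to 5.61 and 4.16 to 16.2) then overlapped. Both thinned head shares lay below those of thinned neuron-marked cells (8.88% and 10.7%), and of the thinned outflow shares only that of the mutant library lay above theirs (13.6% and 5.84%). Whether neuron-marked cells express the head genes themselves was not tested, so their head share is no certain floor.

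Kind and sex moved together in the mutant library. Visceral markers were found in 6 of 28 female-like mutant members (21.4%, 8.30 to 41.0) and 38 of 62 male-like mutant members (61.3%, 48.1 to 73.4), against 74 of 97 female-like control members (76.3%). Outflow markers were found in 13 of 28 (46.4%) and 16 of 62 (25.8%), and head markers in 20 of 28 (71.4%) and 25 of 62 (40.3%). The intervals of the visceral share in female-like and male-like mutant members did not overlap.

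**Figure D2:**
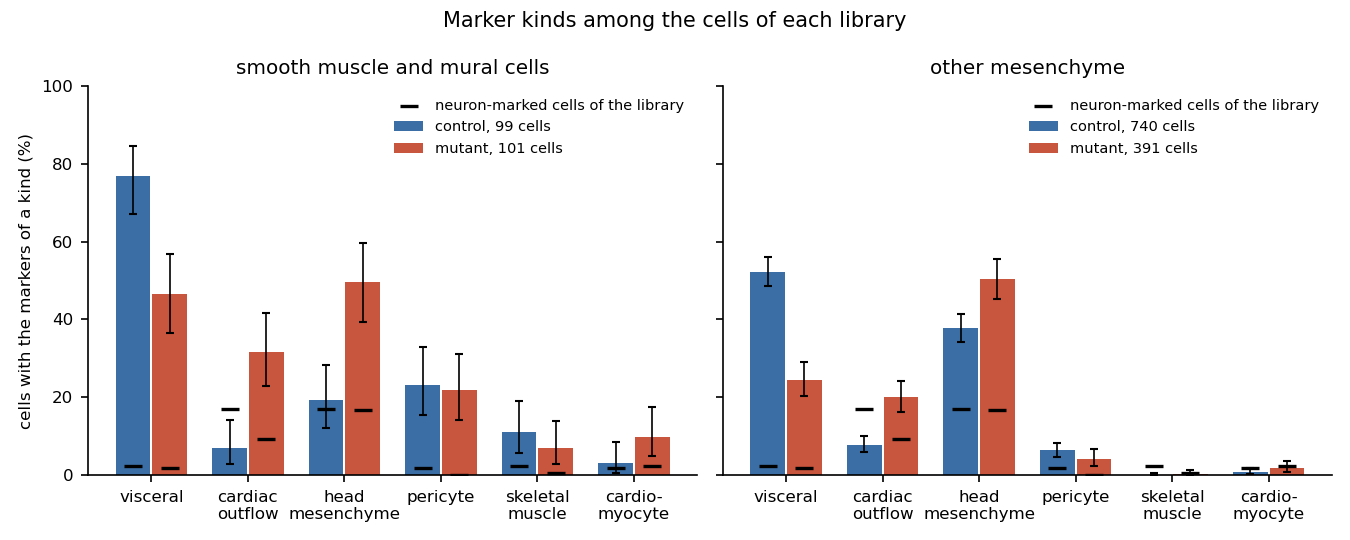
Percent of members and of other mesenchyme in each library that carried the markers of each kind, with 95% Clopper-Pearson intervals; black dashes give the share of neuron-marked cells. Visceral-marked members were 76.8% in the control library and 46.5% in the mutant library.

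Members were next set against other mesenchyme of the same library. Since the rules chose both sets of cells by their genes, these values are a description. Of 3537 genes with at least 50 CPM in members of both libraries, 47 (1.33%) were at least 2-fold higher in members in both and 6 (0.17%) at least 2-fold lower. This filter on the level in members favours higher genes: of 12110 genes with at least 20 UMIs in members, 481 were at least 2-fold higher and 474 lower in the control library (3.97% and 3.91%), and 494 and 493 in the mutant library (4.08% and 4.07%). Among genes outside the rule with at least 100 CPM in members of both libraries, the highest ratio was that of Actg2, the enteric smooth muscle actin, at a log2 ratio of 5.6 in the control library and 6.69 in the mutant library. By the smaller of the ratios in the libraries, the coactivator Myocd followed at 4.63 and 4.07, then the giant sarcomere protein Ttn at 3.58 and 4.21. After them came the endothelin receptor Ednrb at 2.67 and 2.78 and the regulatory light chain Myl9 at 2.54 and 2.80. Mylk, the myosin light chain kinase, stood at 1.91 and 2.70, and tropomyosin Tpm2 at 1.65 and 2.4. The sarcomere genes Actc1 (3.11 and 2.25) and Tnnt1 (2.29 and 1.92), the membrane protein Parm1 (2.17 and 1.6) and the creatine kinase Ckb (1.87 and 1.92) made up the rest of the 15 genes with the highest ratios, beside Myh11, Cnn1, Acta2 and Tagln of the rule. A single mutant member, described below, held 82.1% of the mutant UMIs of Ttn, 68.3% of those of Actc1 and 41.0% of those of Tnnt1. In the control library, the member that held most had 43.2% of the UMIs for Ttn and 26.6% for Actc1.

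Of 29 contractile genes outside the rule with at least 20 UMIs, 16 were at least 2-fold higher than in other mesenchyme in the control library and 23 in the mutant library, against 3.97% and 4.08% of all such genes, and none was 2-fold lower. Pericyte and mural markers had a median log2 ratio of 1.15 and 0.80. Collagens had a median of -0.90 in the control library and 0.21 in the mutant library, where the level in other mesenchyme was lower. Col1a2 and Col3a1 were themselves used to choose the mesenchyme.

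**Figure D3:**
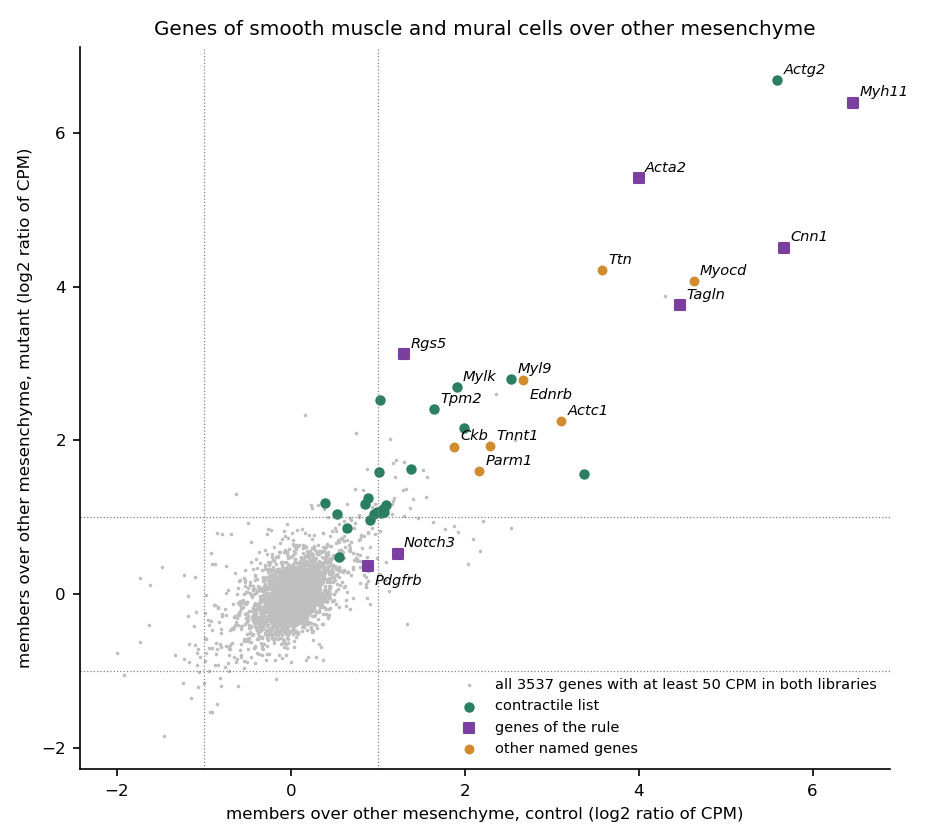
Log2 ratio of members over other mesenchyme in the control library (x axis) and in the mutant library (y axis) for 3537 genes; contractile genes are green, the genes of the rule purple squares, other named genes orange, and dotted lines mark 2-fold. Actg2 lay at 5.6 and 6.69 and Myocd at 4.63 and 4.07.

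Between genotypes, 136 of 4310 genes with at least 50 CPM in members of either library (3.16%) were at least 2-fold higher in mutant members and 85 (1.97%) at least 2-fold lower. In other mesenchyme these shares were 2.37% and 2.3%. For lists of genes, all members of the list with at least 20 UMIs were used, and the background is then 5.73% higher and 4.28% lower in members, with a median log2 ratio of -0.04 over all 12110 genes. Pik3ca itself stood at 37.8 CPM in control members and 41.2 CPM in mutant members (log2 ratio 0.12, -0.27 to 0.52). These counts do not separate the transgene from the endogenous gene.

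Targets of HIF outside glycolysis were well above this background in mutant members. Of 47 targets, 29 were at least 2-fold higher and none 2-fold lower, with a median log2 ratio of 1.30. Bnip3, a mitochondrial receptor for mitophagy, stood at 34.9 CPM in control members and 284 CPM in mutant members (log2 ratio 3.02, 2.72 to 3.34). P4ha2, a collagen prolyl hydroxylase, stood at 20.7 and 136 CPM (2.71), and the lactate exporter Slc16a3 at 34.2 and 199 CPM (2.54, 2.22 to 2.87). The glucose transporter Slc2a1 stood at 48.4 and 223 CPM (2.20) and Vegfa, the endothelial growth factor, at 67.3 and 144 CPM (1.10, 0.85 to 1.36). Lox, a collagen and elastin crosslinker, was the lowest at -0.41. The promoters of Bnip3 and Slc16a3 printed above carry 5 and 2 matches to the HIF core.

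Glycolytic enzymes were higher as well, with 12 of 20 at least 2-fold higher, none 2-fold lower and a median log2 ratio of 1.08. Ldha, lactate dehydrogenase, stood at 813 and 1864 CPM (1.20, 1.13 to 1.27), Aldoa, aldolase, at 508 and 1439 CPM (1.5, 1.41 to 1.59) and Pgk1, phosphoglycerate kinase, at 242 and 653 CPM (1.43, 1.30 to 1.56). Hexokinase Hk2 stood at 26.6 and 73.8 CPM (1.47). The lowest was Bpgm at -0.06.

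Both lists were about as high in other mesenchyme, where the medians were 1.24 for HIF targets and 1.19 for glycolytic enzymes. In visceral-marked members they were 1.46 and 1.26, and in the other members 1.25 and 0.95. In female-like members, however, the median of HIF targets was 0.36, with 10 of 44 at least 2-fold higher and 4 at least 2-fold lower (3.99% and 9.29% of all genes there), and that of glycolytic enzymes 0.72. Vegfa had a log2 ratio of 0.27 in female-like members, whereas Bnip3 (1.88) and Slc16a3 (2.47) remained more than 2-fold higher. Within the mutant library the median of HIF targets was 0.86 higher on the log2 scale in male-like than in female-like members, and female-like other mesenchyme had a median of 0.83 against the control. The part of sex, embryo and kind in this was not tested.

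Contractile genes outside the rule were unequal. Of 29, 5 were at least 2-fold higher and 2 at least 2-fold lower in mutant members, with a median log2 ratio of 0.40 (0.00 in other mesenchyme). Myl9 stood at 582 and 1138 CPM (log2 ratio 0.97, 0.88 to 1.06), Tpm1 at 1182 and 1997 CPM (0.76, 0.69 to 0.82) and vinculin, Vcl, which links actin to adhesions, at 143 and 297 CPM (1.06, 0.88 to 1.23). Cnn2, a further calponin, stood at 421 and 673 CPM (0.68). Of the 29 genes 20 had a ratio above 0 (14 of 28 in female-like members), against 5476 of all 12110 genes. Actg2 stood at 290.4 and 558 CPM (0.94, 0.82 to 1.07), the LIM protein Csrp2 at 280 and 597 CPM (1.09), Pdlim3 at 47.3 and 166 CPM (1.81) and the actin nucleator Lmod1 at 8.73 and 38.3 CPM (2.13).

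Other genes of contraction were lower. Mylk stood at 364 and 234 CPM (log2 ratio -0.64, -0.78 to -0.49), the phosphatase inhibitor Ppp1r14a at 155 and 90.5 CPM (-0.78), the integrin Itga8 at 73.5 and 26.6 CPM (-1.47) and caveolin Cav1 at 57.5 and 27.7 CPM (-1.06). Among the genes of the rule, Acta2 stood at 2079.9 and 3084 CPM (0.57, 0.52 to 0.62), Tagln at 726 and 1686 CPM (1.22, 1.14 to 1.29), Cnn1 at 109.5 and 214 CPM (0.96) and Myh11 at 427 and 263 CPM (-0.70, -0.83 to -0.56).

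These ratios changed with the kind and sex of the members. Actg2 is itself a visceral marker, and visceral-marked cells were 74 of 97 female-like control members but 6 of 28 female-like mutant members. In visceral-marked members the log2 ratio was 0.09 for Myh11 and 0.18 for Mylk, and in the others -1.55 and -2.10. In female-like members it was -0.63 for Acta2, -2.04 for Actg2, -1.86 for Myh11 and -2.62 for Mylk, against 0.98 for Tagln, 0.06 for Cnn1 and 0.07 for Myl9, and 3 of 28 contractile genes were at least 2-fold higher and 8 at least 2-fold lower, with a median of -0.04. In members with both Myh11 and Cnn1, of which 34 of 36 and 31 of 39 were visceral-marked, 35 and 3 female-like, 0 and 33 male-like and 0 and 5 marked by skeletal or heart genes, the log2 ratio was 0.36 for Acta2, 0.61 for Tagln, -0.89 for Myh11 and -0.55 for Mylk. Pdlim3 turned to -0.69 there (-1.12 to -0.27) and Itga8 to 0.45 (-0.28 to 1.19), while Lmod1 (1.31), Csrp2 (0.75) and Vcl (0.75) were still higher and Cav1 (-0.98) lower.

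**Figure D4:**
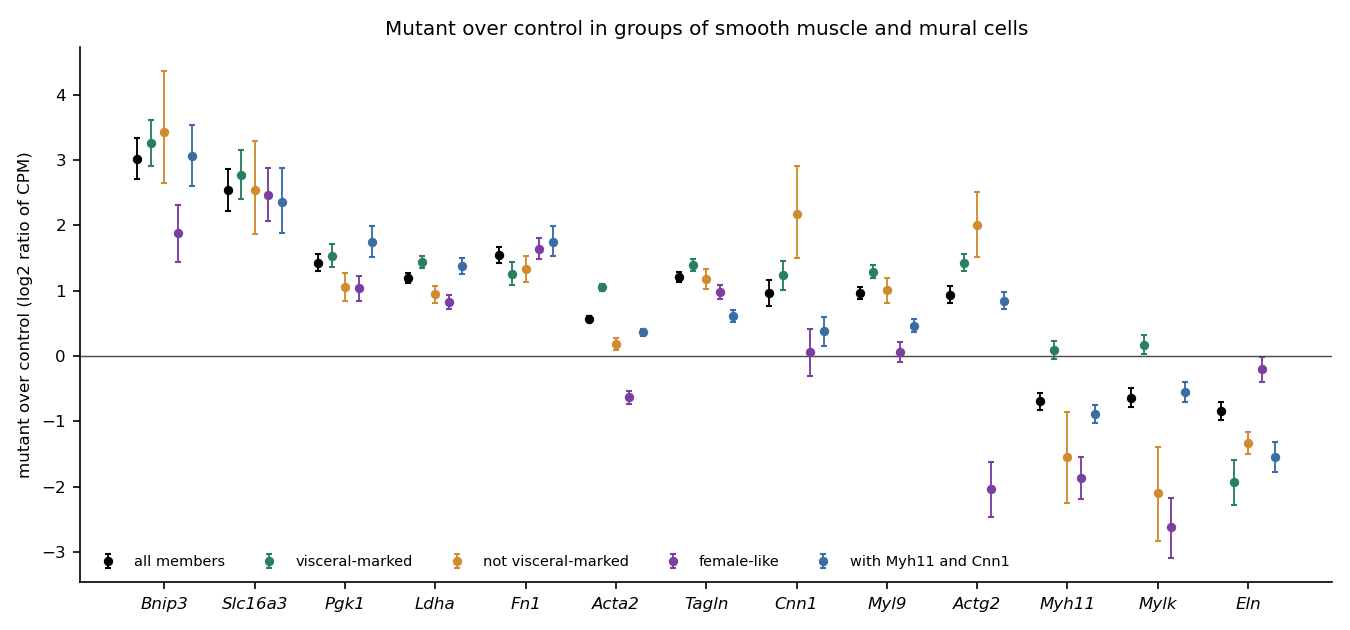
Log2 ratio of mutant over control for 13 genes in all members, visceral-marked members, the other members, female-like members and members with both Myh11 and Cnn1, with 95% counting intervals. Bnip3, Slc16a3 and Fn1 were above 0 in each group, whereas Acta2 was at 0.57 in all members and at -0.63 in female-like members.

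The coactivator Myocd did not differ beyond counting error over all members, at 112 and 110.3 CPM (log2 ratio -0.02, -0.25 to 0.21). It was higher in visceral-marked members (0.79) and lower in the others (-1.37), in female-like members (-0.77, -1.24 to -0.33) and in members with both Myh11 and Cnn1 (-0.31, -0.56 to -0.06). Its partner Srf did not differ beyond counting error, at 64.8 and 53.2 CPM (-0.28, -0.61 to 0.04). Of 21 regulators of smooth muscle, 5 were at least 2-fold higher in mutant members and none 2-fold lower. These were Gata6, a factor of vascular smooth muscle and outflow tract (39.7 and 138 CPM, 1.79), the forkhead factors Foxc1 (2.91 and 28.4 CPM, 3.29) and Foxc2 (13.47 and 43.6 CPM, 1.70), Prrx1 (1.14) and Tbx18 (1.07). Gata6 was at 0.07 in other mesenchyme and at 2.51 in female-like members. Nr2f2, a nuclear receptor of venous and visceral tissue, was lower, at 292 and 163 CPM (-0.84, -1.01 to -0.67), but not in members without visceral markers (0.09), where Tbx18 stood at -0.72.

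Mural signalling genes showed little common direction over all members. Of 14 pericyte and mural markers with at least 20 UMIs, 2 were at least 2-fold higher and 1 lower, with a median log2 ratio of -0.25. In visceral-marked members 1 of 14 was higher and 4 lower (median -0.42, against 670 and 556 of all 11026 genes there). In members without visceral markers 4 of 13 were higher and none lower (median 0.55, against 7.99% and 4.43% of all genes there). The channel subunit Abcc9 stood at 15.3 and 30.9 CPM (1.01), the forkhead factor Foxs1 at 5.10 and 14.2 CPM (1.48) and the channel Trpc6 at 22.6 and 2.48 CPM (-3.18), while Gucy1a1, a subunit of the nitric oxide receptor, stood at 186 and 102 CPM (-0.87). Rgs5, a regulator of G protein signalling used in the rule, stood at 83.0 and 163 CPM (0.98, 0.74 to 1.21) in members and at -0.84 in other mesenchyme. In female-like members Abcc9 stood at -0.50 and Foxs1 at -0.91, and in members without visceral markers Gucy1a1 stood at 0.55. The receptors Notch3 (71.3 and 61.4 CPM, -0.22) and Pdgfrb (92.1 and 91.5 CPM, -0.01) had intervals that held 0.

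Among 14 Notch genes, 3 were at least 2-fold higher and none lower (2 and 3 of 14 in female-like members). The ligand Jag1 stood at 32.4 and 62.8 CPM (log2 ratio 0.95), the targets Hey1 at 22.2 and 69.5 CPM (1.65) and Hey2 at 8.37 and 24.8 CPM (1.57), but the targets Heyl (-0.26) and Hes1 (-0.35) were not higher. The third of these 3 genes, the coactivator Maml1 (1.26), had 57.8% of its mutant UMIs in a single cell. No gene of the 6 in the PDGF list passed 2-fold. Of 30 TGF-beta and BMP genes, 2 were at least 2-fold higher and 4 at least 2-fold lower, against 5.73% and 4.28% of all genes. The ligand Bmp2 was higher (2.04), and the 4 lower genes were the ligand Bmp5 (-1.26) and the receptors Tgfbr2 at 53.5 and 23.8 CPM (-1.17), Tgfbr3 at 76.1 and 37.6 CPM (-1.02) and Eng at 28.8 and 13.8 CPM (-1.06), which was higher in members without visceral markers (1.98). The ligand Tgfb2 stood at 117 and 199 CPM (0.76), so that over all members 3 receptors of the list were lower and ligands were found on either side. The balance changed with kind and sex. In visceral-marked members 4 of 30 were higher and 2 lower (670 and 556 of all 11026 genes there). Without visceral markers 6 of 28 were higher and 3 lower (7.99% and 4.43% of all genes there). Among female-like members 0 of 28 were higher and 4 lower (3.99% and 9.29%).

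Of receptors and channels of vascular tone, 8 of 23 were at least 2-fold lower and 1 higher, with a median log2 ratio of -0.25 (-0.47 in other mesenchyme). In members without visceral markers 2 of 13 were lower and 1 higher (median -0.06, against 4.43% and 7.99% of all genes there). Ednra, the endothelin receptor of arterial smooth muscle, stood at 171 and 77.7 CPM (-1.14, -1.37 to -0.90) and Ednrb at 239.8 and 117 CPM (-1.04, -1.23 to -0.85). Agtr2, an angiotensin receptor, stood at 45.1 and 1.42 CPM (-4.99), the latter from 4 UMIs, and Pde5a, the cyclic GMP phosphodiesterase, at 278 and 155 CPM (-0.84). In visceral-marked members Ednrb stood at -0.27, but at -0.91 in members without visceral markers and at -4.00 in female-like members. In members with both Myh11 and Cnn1 Ednrb stood at -1.10 (-1.30 to -0.90), Ednra at -0.55 and Pde5a at -0.37. Ednra, Ednrb, Agtr2 and Pde5a were all lower in other mesenchyme too, at -1.07, -1.15, -2.59 and -1.20.

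Of 29 genes of elastic fibres and matrix, 5 were at least 2-fold higher in mutant members and 1 lower (median log2 ratio 0.25), whereas in other mesenchyme 1 of 30 was higher and 8 lower (median -0.47, against 6.7% and 5.29% of all genes there). Fibronectin, Fn1, stood at 259 and 759 CPM (1.55, 1.43 to 1.68), the crosslinker Loxl2 at 107 and 309 CPM (1.53), fibulin Fbln2 at 58.6 and 157 CPM (1.42) and tenascin Tnc at 66.6 and 161 CPM (1.28). Fbln5 stood at 91.0 and 215 CPM (1.24), with 38.0% of its control UMIs in a single cell. In members with both Myh11 and Cnn1, however, 3 of 29 matrix genes were at least 2-fold higher and 5 lower (median -0.20, against 5.59% and 4.56% of all genes there). Fbln5 was lower among them (-1.03, -1.49 to -0.57) and Fbln2 did not differ beyond counting error (0.10, -0.46 to 0.66), while Loxl2 (1.14) and Tnc (1.14) were still higher. Mfap5, a microfibril protein, was the gene over 2-fold lower, at 23.3 and 3.19 CPM (-2.87). Elastin, Eln, was also lower, at 427 and 238 CPM (-0.84, -0.98 to -0.70), with 21.5% and 26.5% of its UMIs in the cell that held most. The ratio of Fn1 stayed above 1 in visceral-marked (1.26), other (1.33) and female-like members (1.65), while that of Eln was -1.93, -1.34 and -0.20.

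The fibrillar collagens did not differ in members. Col1a1 stood at 968 and 966 CPM (log2 ratio -0.00, -0.08 to 0.07), Col3a1 at 1121 and 1101 CPM (-0.02) and Col1a2 at 692 and 678 CPM (-0.03). In other mesenchyme Col1a1 stood at 2085 and 828 CPM (-1.33), Col3a1 at -0.99 and Col1a2 at -0.90. Over all 15 collagens the median was -0.02 in members and -0.99 in other mesenchyme. Col18a1, of basement membranes, was higher in members (15.6 and 59.6 CPM, 1.93), and Col14a1 (78.2 and 20.2 CPM, -1.95), Col6a1 (-1.08) and Col6a2 (-1.06) were lower.

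**Figure D5:**
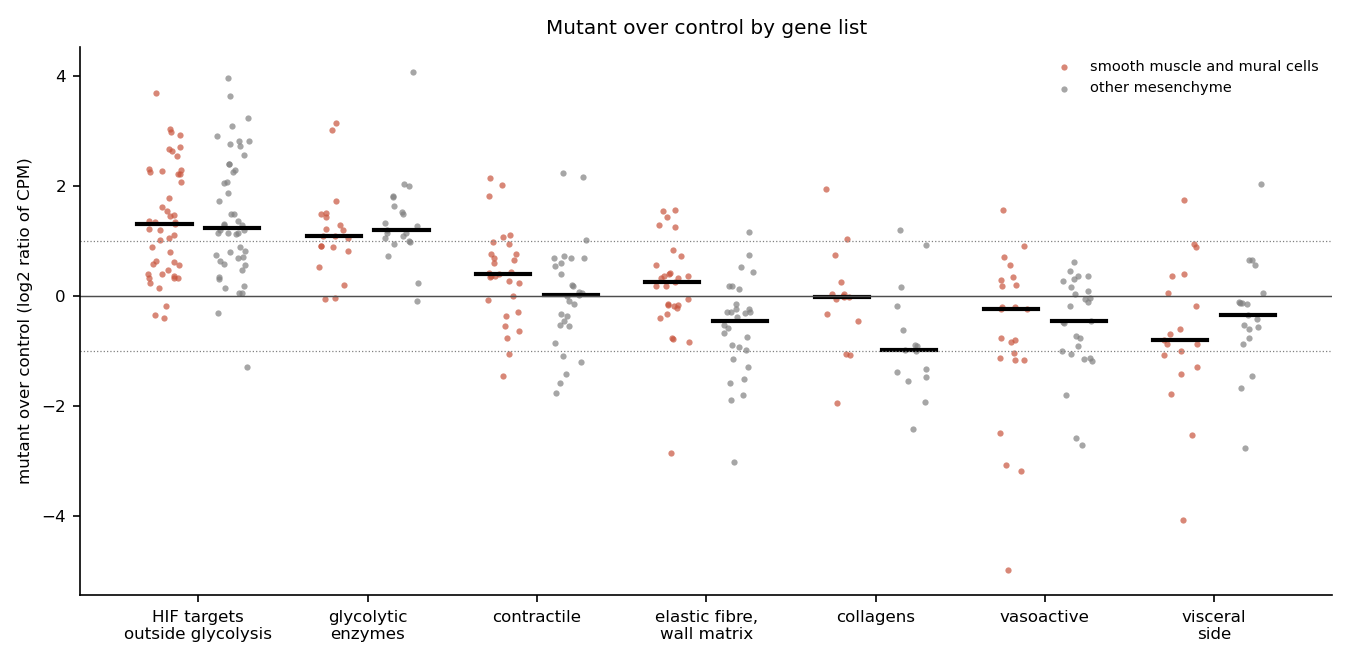
Log2 ratio of mutant over control of each gene in members (red) and in other mesenchyme (grey) for 7 lists, with medians in black; genes with under 3 UMIs in either library are not drawn. The medians of HIF targets were 1.30 in members and 1.24 in other mesenchyme, and those of collagens -0.02 and -0.99.

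Several regional genes named next also mark the kinds, so their ratios restate those shares. Of 19 genes of visceral smooth muscle and its mesenchyme, 7 were at least 2-fold lower and 1 higher, with a median log2 ratio of -0.81. The ligand Wnt2 stood at 41.9 and 2.48 CPM (-4.08), Foxf2 at 59.3 and 10.3 CPM (-2.53) and Tbx4, a factor of lung and trachea mesenchyme, at 99.0 and 40.1 CPM (-1.30). Of 12 outflow genes, 4 were at least 2-fold higher and 2 lower, with a median of -0.26 and 5 above 0. The higher ones included Tbx20 at 4.37 and 51.4 CPM (3.56), Gata4 at 6.19 and 46.5 CPM (2.91) and Hand2 at 7.28 and 36.9 CPM (2.34), and Tbx2 was among the lower (-1.16). Of 11 head genes, 6 were at least 2-fold higher and 1 lower, with Twist1 at 37.9 and 76.6 CPM (1.02). Within visceral-marked members Wnt2 (-3.28) and Foxf2 (-1.83) were still lower, but the median of the visceral list was -0.01.

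The largest differences between the libraries in genes of at least 100 CPM rested in part on single cells. Acta1 (1.09 and 113 CPM, log2 ratio 6.69), Tnnc1 (4.57), Myl1 (3.89), Mylpf (20.4 and 288 CPM, 3.82) and Myh3 (3.77), which encode sarcomere proteins of striated muscle, had 98.4%, 93.7%, 96.7%, 98.9% and 99.2% of their mutant UMIs in a single member of 72055 UMIs. That cell held 111 UMIs of Myog, 325 of Acta2 and none of Myh11. Myl4 (2.45) and Tnni1 (2.82) had 73.7% and 60.6% of their mutant UMIs there. In the control library, 404 UMIs of the hormone precursor gene Pomc, 96.0% of its total, lay in a single member, and its ratio of -4.67 rests on that cell. Without these 2 cells the log2 ratio was -2.58 for Mylpf, -3.11 for Myh3 and -1.02 for Myl1. These values rest on few control cells that were kept. The control member that held most had 48.2% of the 56 control UMIs for Mylpf, 58.8% of 34 for Myh3 and 45.5% of 22 for Myl1. Neither of the 2 cells left out was among the 6 control and 4 mutant members with the highest doublet scores.

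The other genes among the 12 largest rises of genes with at least 100 CPM in a library were Crabp1, a retinoic acid-binding protein (42.2 and 431 CPM, 3.35, with 29.0% of mutant UMIs in a single cell), Sox9, a cartilage and outflow cushion factor (20.7 and 119 CPM, 2.52), and Bnip3, P4ha2 and Slc16a3. Among genes with at least 100 CPM in a library, the largest falls besides Pomc were Adh1, a retinol dehydrogenase (159 and 7.45 CPM, -4.42, -5.13 to -3.79), Dynlt1b, a dynein light chain (242 and 52.9 CPM, -2.19), Plpp3, a lipid phosphatase (127 and 28.7 CPM, -2.15), the heparan sulfotransferase Hs6st3 (195 and 52.5 CPM, -1.89), the catenin Ctnna2 (123 and 34.4 CPM, -1.84, with 34.8% of control UMIs in a single cell) and Hoxb5 (111 and 31.2 CPM, -1.83). Adam12 (-1.49), Cped1 (-1.48), Cavin2 (-1.43), the splicing factor Cwc22 (487 and 182 CPM, -1.42) and Xist (-1.50) completed the list. Adh1 (-3.96), Dynlt1b (-2.02), Hoxb5 (-2.34) and Cwc22 (-1.47) were as low or nearly so in other mesenchyme, while Plpp3 was at -0.60 and Hs6st3 at -3.82 there. In cells without visceral markers Hoxb5 stood at -0.24 in members and at 0.27 in other mesenchyme. The counting error of these values is not given, so they do not settle whether its fall was absent there. Hoxb5 stood at -1.25 in visceral-marked members and at -1.14 (-1.58 to -0.70) in members with both Myh11 and Cnn1. The direction turned for Ctnna2 in members with both Myh11 and Cnn1 (1.30, 0.42 to 2.25) and was not settled beyond counting error for Hs6st3 in members without visceral markers (0.76, -0.07 to 1.69). Cped1 stood at -0.48 in members without visceral markers and at -3.48 in female-like members.

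The log2 ratios of mutant over control in members were then set beside those in other mesenchyme. For the genes of the rule they are a description: Acta2 stood at 0.57 in members and -0.84 in other mesenchyme (0.57 in mesenchyme without visceral markers), Rgs5 at 0.98 and -0.84 and Tagln at 1.22 and 1.93. Among genes with at least 100 CPM in members of a library, the largest differences upwards, members minus mesenchyme, were Acta1 (5.95), Mylpf (3.91), Myh3 (3.59), Myl1 (2.85) and Tnnc1 (2.79), the genes of the single cell above. The largest downwards were Pomc (-5.02), Synpo2, an actin-binding protein of the Z-disc (-1.81), Nnat, an imprinted membrane protein (-1.73), Schip1 (-1.67, with 59.2% of its control UMIs in a single cell) and Zfp536 (-1.64).

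Markers of other cell types also moved with genotype in members, and their part in the results above was not tested. Summed over the list, the 13 cardiomyocyte markers stood at 119 CPM in control members and 712 CPM in mutant members (296 CPM without the single cell rich in Myog), with Tnni1 the most counted and none at 0, and all 9 with at least 20 UMIs were at least 2-fold higher. Without the 2 single cells 4 of 8 were and none was 2-fold lower (against 5.6% and 4.47% of all genes there). The 15 skeletal markers stood at 1022 and 1461 CPM, led by Actc1 with none at 0, but at 374 CPM in mutant members without that cell. The control library stood at 1039 CPM without the cell rich in Pomc, which held 1 UMI of Actc1. Control members rich in muscle genes were kept, and the one that held most had 26.6% of the control UMIs of Actc1. The values of 374 and 1039 CPM are therefore not a like comparison. The 10 cartilage markers stood at 100.4 and 412 CPM, led by Sox9 with 1 and 0 at 0. Cells with cardiomyocyte markers were 3 control and 10 mutant members and cells with skeletal markers 11 and 7. Endothelial markers summed to 35.7 and 91.5 CPM, led by Flt1, with 1 and 0 of 10 at 0. Epithelial markers summed to 20.4 and 51.8 CPM (Krt8, 1 and 0 of 10 at 0), neuronal markers to 134 and 177 CPM (Tubb3, none at 0), myeloid markers to 8.01 and 4.26 CPM (Cd68, 4 and 4 of 9 at 0), and neural crest and Schwann markers to 84.4 and 41.2 CPM (Ngfr, 1 and 1 of 8 at 0). Mesothelial markers summed to 75 and 91.5 CPM (Upk3b, none at 0), erythroid markers to 14.6 and 34.4 CPM (Hbb-y, 3 and 3 of 8 at 0) and liver markers to 1.46 and 79.5 CPM (Afp, 3 and 0 of 6 at 0). Liver markers stood at 2.61 CPM in control mesenchyme and 479 CPM in mutant mesenchyme. When members with skeletal or cardiomyocyte markers were left out, 86 control and 85 mutant members remained.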

How the data were processed

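Cells were sequenced with 10x 5′ chemistry, 1 library per genotype. The authors ran Cell Ranger 7.1.0 against mm10 (GRCm38), per the labels and the study's methods, and deposited raw UMI counts per gene and cell. The annotation release and the counting of introns are not given in the sources used here. Totals were 66935720 and 73915525 UMIs in 4505 and 5357 cells, and 0 columns of other samples were met.

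Cells were filtered by the limits given in the study and members chosen by the marker rule. The total kept, 6272, differed slightly from the total that the study reports. The members and the gene lists were chosen with earlier results of these data known. UMIs were summed over members per library and scaled to CPM. Exact Poisson, conditional binomial and Clopper-Pearson 95% intervals cover counting error only. Differences between members and mesenchyme are those of log2 ratios with 0.5 added to each count. Genes counted had at least 50 CPM in at least 1 library (in both against mesenchyme) and list genes at least 20 UMIs over both; a gene at 0 entered a median at 3 UMIs. Where a ratio has a library at 0, none is given.

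The text names the genes of the rule, and in each list the most counted members and the extremes. It also names up to 12 rises and 12 falls (at least 100 CPM in a library, interval beyond 1.5-fold), the 15 genes most over mesenchyme, the 5 largest differences each way, Xist, Y-linked genes and Pik3ca. Other list members were named after their values were seen. Doublets were kept, and the caller's highest-scoring cells (0.8% per 1000 deposited cells) were removed as an alternative. Other alternatives changed the marker rule, depth, sex, kind, scaling and filters. Doublet scores came from scanpy 1.11.5 (Scrublet), sums and intervals from pandas 2.3.3 and scipy 1.17.1 under Python 3.11.15 with numpy 2.4.6, plots from matplotlib 3.10.9, and TMM factors from edgeR 4.0.16 in R 4.3.3. The scripts were tested on simulated data.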

Additional observations from a re-analysis of the deposited data

Results flagged for a closer look

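For 8 of the genes named among the largest rises, falls and genes over mesenchyme, the log2 ratio of mutant over control had opposite signs in visceral-marked members and in the other members of the same libraries, with both counting intervals clear of 0. It was 5.95 and -3.52 for Mylpf, 5.84 and -4.56 for Myh3, and 3.67 and -2.31 for Ttn. Actc1 stood at 1.34 and -2.10, and Tnnt1 at 1.36 and -1.49. The single mutant member rich in Myog held 98.9% of the mutant UMIs of Mylpf, 99.2% of those of Myh3, 82.1% of those of Ttn, 68.3% of those of Actc1 and 41.0% of those of Tnnt1. In the control library, the member that held most had 48.2% of the UMIs for Mylpf, 58.8% for Myh3, 43.2% for Ttn, 26.6% for Actc1 and 19.1% for Tnnt1. The counting intervals do not cover such differences between cells. Myocd, the coactivator of contractile genes, stood at 0.79 and -1.37, Mylk at 0.18 and -2.10 and the membrane protein Parm1 at 1.52 and -0.61. With 1 library per genotype these differences between kinds were not tested.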

How the results depend on the processing

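With 1 library of pooled embryos per genotype, only counting error was measured, and 28 female-like mutant members limit the comparison within a sex. No paired analysis was possible because each genotype had a single library. The cause of each change below was not tested unless the alternative itself uses fewer cells or more genes.

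The share of members was 3.56% in the control library and 2.89% in the mutant library. It became 1.18% and 1.57% with the rule on cells thinned to 5000 UMIs, 2.34% and 1.89% with no marker of another type, 1.55% and 1.72% with the stricter rule, 0.826% and 1.55% without visceral-marked cells, 2.73% and 1.35% with visceral-marked cells only, and 1.29% and 1.12% with Myh11 and Cnn1 both required. Without the filter on CPM, 694 genes were at least 2-fold higher (136 with it) and 518 lower (85 with it). Genes at least 2-fold lower became 183 with the thinned rule, 215 in female-like members, 137 without visceral-marked cells, 130 with Myh11 and Cnn1 and 171 with thinned members. Genes over mesenchyme in both libraries, 47, became 131 with the thinned rule, 88 with the stricter rule, 29 in female-like members, 80 in visceral-marked members, 122 with Myh11 and Cnn1 and 82 against all other cells.

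In female-like members the median log2 ratio of HIF targets moved from 1.30 to 0.36, that of glycolytic enzymes from 1.08 to 0.72 and that of contractile genes from 0.40 to -0.039. The glycolytic median was 1.26 in visceral-marked members. The contractile median was 0.014 with the thinned rule, 0.22 with the stricter rule, 0.75 without visceral-marked cells, 0.58 with these only, 0.13 with Myh11 and Cnn1 and 0.28 as a mean over cells.

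Among genes at least 2-fold different, these ratios changed sign. Mylpf fell to -0.99 with the stricter rule, -0.57 without skeletal or cardiomyocyte-marked cells, -2.91 in female-like members, -3.52 without visceral-marked cells, -2.58 without the 2 single cells and -2.26 with Myh11 and Cnn1. Myh3 stood at -0.57 with no marker of another type, -2.19 in female-like members, -4.56 without visceral-marked cells and -3.11 without the 2 single cells. In the same 4 alternatives Ttn, at 1.10 in all members, stood at -0.85, -0.48, -2.31 and -1.37. Myl1 stood at -0.24 in female-like members, -1.07 without visceral-marked cells and -1.02 without the 2 single cells. Tnnc1 stood at -1.79 with no marker of another type and -0.67 with Myh11 and Cnn1. Without visceral-marked cells Acta1 stood at -0.24, Myl4 at -0.87, Hs6st3 at 0.76 and Pomc at 1.93, and with Myh11 and Cnn1 Ctnna2 stood at 1.30. Several of these changes of sign rest on few UMIs. With Myh11 and Cnn1, Tnnc1 had 4 control and 3 mutant UMIs (-3.44 to 1.89) and Mylpf 4 and 1 (-7.88 to 1.08). Their direction was thus not settled beyond counting error. Acta1 had only 3 UMIs in all control members, and Pomc 17 in all mutant members. Of 64 single genes, 35 were at least 2-fold different, and 25 of these kept their sign in every alternative that gave a value. Of 19 alternatives, 3 were chosen after seeing the data: leaving out the 2 single cells, members with Myh11 and Cnn1, and male-like mutant members against all control members. Scaling by the median ratio or by TMM moved all log2 ratios by 0.0508 or 0.0355.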

Other observations

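Other gene groups were measured in members that the comparisons above do not use. The growth factor gene Igf2 stood at 772 CPM in control members and 1439 CPM in mutant members (log2 ratio 0.90, 0.82 to 0.98) and its imprinted neighbour H19 at 482 and 999 CPM (1.05), against 0.13 and 0.28 in other mesenchyme. In female-like members they were at 1.42 and 1.46. Igf1 (-0.75) and the imprinted Dlk1 (1542 and 838 CPM, -0.88) were lower. Of 16 IGF and imprinted genes, 3 were at least 2-fold higher and none lower. Among 32 genes of PI3K, AKT and FOXO signalling, 1 (Pik3cb, 2.13, from 4 and 18 UMIs) was at least 2-fold higher and none lower (median 0.09), and none of 33 cell division genes passed 2-fold in either direction (median -0.22).

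Of 21 angiogenic ligands, 6 were at least 2-fold higher in mutant members and 3 lower. The chemokine Cxcl12 stood at 131 and 336 CPM (1.35, 1.18 to 1.53) and the guidance factor Slit2 at 84.8 and 178 CPM (1.07), against -0.23 and 0.17 in other mesenchyme. Vegfd stood at 23.3 and 4.26 CPM (-2.45). Among 18 heat shock genes, 3 were at least 2-fold higher, with Hspa1a at 49.5 and 236 CPM (2.25) and Hspa1b at 36.0 and 194 CPM (2.43). Both were as high in other mesenchyme, at 2.11 and 2.58. Of 20 immediate early genes, 2 were at least 2-fold lower, Junb (333 and 153 CPM, -1.12) and Nr4a1 (175 and 81.2 CPM, -1.10), whereas in female-like members 11 of 20 were at least 2-fold lower (median -1.09, against 9.29% of all genes there). Of 26 genes of ER stress, 2 were higher and 2 lower (median 0.22). How dissociation bears on these last lists was not tested.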
